A study of Mus musculus with 12 samples.

Results

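The 10 genes described here, Slc7a11, Gclc, Gclm, Gpx2, Gstm1, Gsta4, Txnrd1, Srxn1, Nqo1 and Hmox1, act in glutathione and thioredoxin metabolism or are known targets of the transcription factor NRF2. They are a fixed list of names that was drawn up with earlier results of these data known, and all 10 of 10 were among the 21743 genes of the table. Single-cell RNA was counted by Drop-seq, which reads the 3′ end of each captured RNA and counts molecules by a unique molecular identifier (UMI). The material came from 2 Brca1-deficient mice, both MMTV-Cre; Brca1flox/flox with a mixed genetic background of C57BL/6 and 129/Sv. The labels give no age. MMTV-Cre is active mainly in mammary epithelium, and a group without the deletion is not analysed here. The fourth pair of mammary glands (MG1 with 2 libraries in mouse 1, MG2 with 2 in mouse 2) and a mammary tumor (MT1 with 5 libraries, MT2 with 3) of the same 2 mice were dissociated and depleted of hematopoietic and endothelial cells. Each group is a single tissue of a single animal, so p-values over libraries measure only how much libraries of one tissue differ, which may be technical. Tissue or mouse and any batch that coincides with it cannot be told apart.

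As background, NRF2 is held in the cytoplasm by KEAP1, which presents it to the CUL3 ubiquitin ligase for degradation. Oxidants and electrophiles modify KEAP1, NRF2 accumulates, pairs with a small MAF protein in the nucleus and activates genes that carry antioxidant response elements, where the repressor BACH1 competes with it. The target genes import cystine, build glutathione, use it to reduce peroxides and to conjugate electrophiles, and keep thioredoxin and peroxiredoxins reduced. Several of these genes also respond to other factors, among them ATF4 for Slc7a11 and haem through BACH1 for Hmox1.

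Libraries held 693333 (MG1 replicate 2, 105 cells) to 14841414 UMIs (MT2 replicate 1), and the median cell held 1784 to 4842 UMIs. The low depth of MG1 replicate 2 limits every gland value of mouse 1. Clustering, in which the 10 genes took no part, gave 11 clusters, and the tests left out 1123 cells of the clusters with fibroblast, endothelial or immune markers, called stromal here, and kept 20034 of 21157 cells. Gland cells fell into luminal hormone-sensing-like, luminal secretory-like and basal-like clusters with 8, 12 and 9 of their lineage markers raised. MT1 held clusters 2 and 3, which are epithelial-like with 6 and 10 epithelial markers raised, and cluster 4, led by Prl2c3 and Cav1, with 0. The MT2 clusters 0 (led by Grem1 and Ptgs2) and 1 (led by Cenpe and Top2a) also had 0 epithelial markers raised, so they and cluster 4 are called by number. Brca1 had 0 UMIs in both MG1 libraries and 8 to 153 in the others, but 3′ tags do not cover a deletion in the body of the gene and so check nothing. The gland groups held 61 cells in tumor clusters and the tumor groups 99 cells in gland clusters, and values without these cells are given where they matter.

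To see what the control regions of these genes share, promoters from RefSeq on GRCm38.p6 were searched for the core of the antioxidant response element, TGACNNNGC, on either strand. Each promoter spans 250 bases before to 50 bases after an annotated start. The table held 10 promoters for 7 of the 10 genes, and Gclc, Hmox1 and Gsta4 had none there. The core occurred in 3 of the 10 promoters, 1 each of Gclm, Txnrd1 and Srxn1, and in 12.4% of all 32851 promoters. All 3 matches lay on the strand opposite to the gene, at -134 to -126 from the start in Gclm, at -92 to -84 in Txnrd1 and at 29 to 37 after the start in Srxn1. They are printed because these are the promoters that hold the core, 5′ to 3′ on the gene's strand, with the match in capitals:
Gclm, chr3:122245307-122245606, plus strand: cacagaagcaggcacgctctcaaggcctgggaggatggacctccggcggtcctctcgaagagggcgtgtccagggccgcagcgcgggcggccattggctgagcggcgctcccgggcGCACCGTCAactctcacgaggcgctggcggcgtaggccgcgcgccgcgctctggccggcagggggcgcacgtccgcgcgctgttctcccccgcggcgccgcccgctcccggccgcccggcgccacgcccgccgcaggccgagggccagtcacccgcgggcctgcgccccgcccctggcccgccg
Txnrd1, chr10:82858956-82859255, plus strand: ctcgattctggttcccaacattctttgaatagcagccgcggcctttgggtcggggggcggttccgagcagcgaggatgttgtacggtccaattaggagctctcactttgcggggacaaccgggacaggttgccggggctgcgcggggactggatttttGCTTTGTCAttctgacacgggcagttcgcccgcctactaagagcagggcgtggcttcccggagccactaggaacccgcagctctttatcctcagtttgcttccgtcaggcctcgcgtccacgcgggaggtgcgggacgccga
Srxn1, chr2:152105274-152105573, plus strand: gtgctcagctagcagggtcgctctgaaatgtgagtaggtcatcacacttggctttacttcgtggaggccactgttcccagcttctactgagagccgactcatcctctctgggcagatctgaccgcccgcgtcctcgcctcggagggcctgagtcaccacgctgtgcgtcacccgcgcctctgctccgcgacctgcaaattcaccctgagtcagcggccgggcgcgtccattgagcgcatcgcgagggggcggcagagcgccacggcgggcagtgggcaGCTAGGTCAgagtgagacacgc
The promoters of Gpx2 and Nqo1 are printed because their transcripts set MT1 apart from every other group. Neither holds the core in this window, so they have no capitals:
Gpx2, chr12:76795505-76795804, minus strand: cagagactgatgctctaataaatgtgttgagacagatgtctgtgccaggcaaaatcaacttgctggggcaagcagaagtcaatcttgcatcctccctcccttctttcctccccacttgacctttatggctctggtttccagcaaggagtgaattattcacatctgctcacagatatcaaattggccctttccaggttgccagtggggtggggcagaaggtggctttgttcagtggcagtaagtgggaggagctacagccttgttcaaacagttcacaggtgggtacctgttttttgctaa
Nqo1, chr8:107403156-107403455, minus strand: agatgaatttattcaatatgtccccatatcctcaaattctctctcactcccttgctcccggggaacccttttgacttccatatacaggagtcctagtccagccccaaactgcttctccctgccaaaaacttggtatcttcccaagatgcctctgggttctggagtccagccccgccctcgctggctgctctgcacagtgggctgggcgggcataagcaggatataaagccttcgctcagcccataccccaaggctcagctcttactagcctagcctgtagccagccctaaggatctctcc
A match is only a string of letters, and the window does not cover distal elements.

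The levels of the 10 genes per library are plotted as CPM, the UMIs of a gene scaled to a common library total with TMM factors. Such 3′ counts do not scale with transcript length, and levels were compared between libraries and not between genes.

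**Figure D1:**
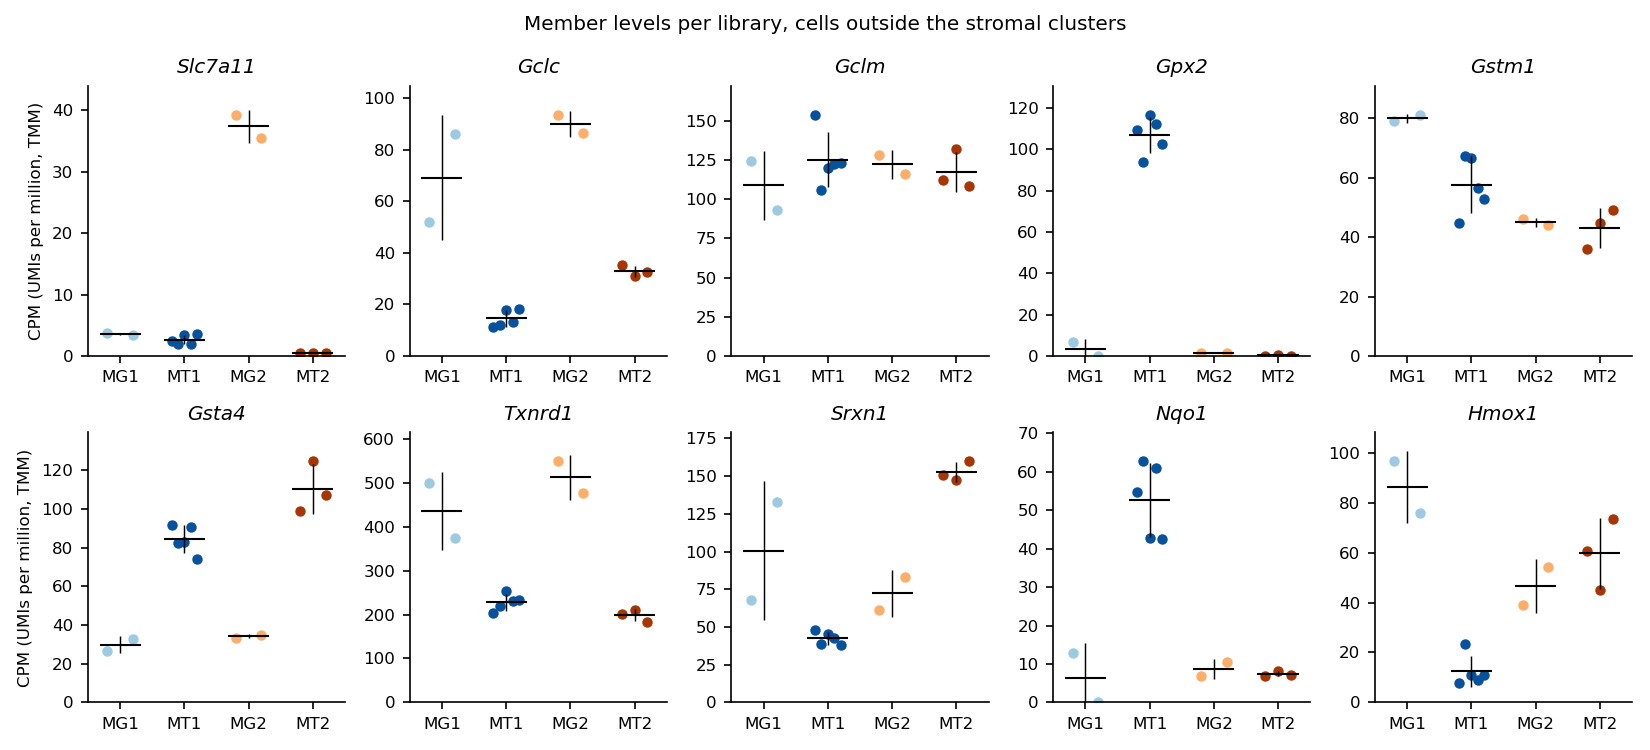
Level of each gene in CPM (y axis) in the 12 libraries by group (x axis), over cells outside the stromal clusters; points are libraries, horizontal bars means and vertical bars SD. Gpx2 and Nqo1 are high in all 5 MT1 libraries, Slc7a11 is high in both MG2 libraries, and Gclm overlaps in all 4 groups.

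The tumor of mouse 1 was compared with its gland first. Of the 10 genes, 3 were higher in MT1 (Gpx2, Nqo1 and Gsta4) and 5 were lower (Gclc, Hmox1, Srxn1, Txnrd1 and Gstm1), and Slc7a11 and Gclm did not pass the test. Among all 13652 genes tested, 32.2% were higher and 27.1% lower, so 3 of 10 higher is close to the share of all genes. The median log2 fold change of the 10 genes was -0.44, against 0.11 over all genes. In mouse 2, 2 genes were higher in MT2 (Gsta4 and Srxn1) and 4 lower (Slc7a11, Gclc, Txnrd1 and Gpx2), beside 32.7% of all genes higher and 34.3% lower, with medians of -0.15 and -0.05. The Gpx2 call in mouse 2 rests on 10 UMIs in MG2 and 8 in MT2 and is not read as a fall. Gclm, Gstm1, Nqo1 and Hmox1 did not pass the test in mouse 2. The difference between the mice was tested as an interaction in the same fit. It was called for 5 genes, Gpx2, Slc7a11 and Nqo1 with the more positive log2 change in mouse 1 and Hmox1 and Srxn1 with the more positive one in mouse 2, beside 26.4% and 17.1% of all genes. MT1 against MT2 gave 4 genes higher (Gpx2, Nqo1, Slc7a11 and Gstm1) and 4 lower (Hmox1, Srxn1, Gclc and Gsta4), beside 35.3% and 33.1% of all genes. These 4 comparisons share libraries, so their calls are not independent. With RLE in place of TMM scaling the median of all genes shifts by -0.12 in mouse 1, and of the calls of the 10 genes only the Gclc interaction, below, changes with it.

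**Figure D2:**
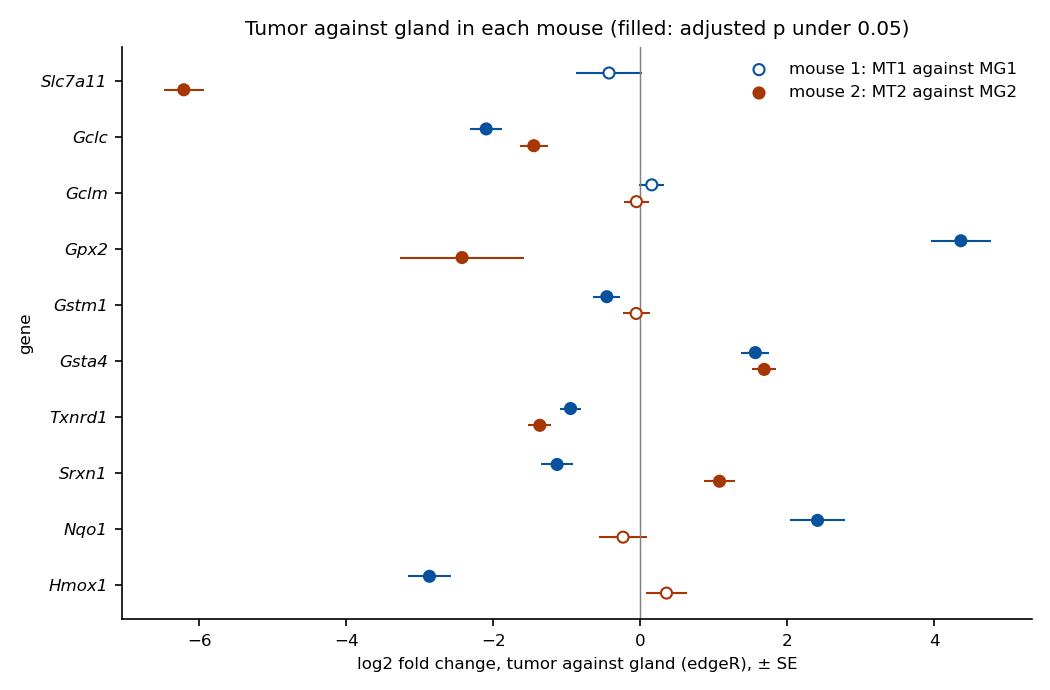
Log2 fold change of tumor against gland (x axis, with SE) for each gene (y axis) in mouse 1 (blue) and mouse 2 (brown); filled points have an adjusted p under 0.05. Gsta4 lies right of 0 and Gclc and Txnrd1 lie left of 0 in both mice, while Srxn1 and Gpx2 lie on opposite sides.

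Gclc, Gsta4 and Txnrd1 were called in the same direction in both mice. Gclc encodes the catalytic subunit of glutamate-cysteine ligase, the rate-limiting enzyme of glutathione synthesis. Its levels were 52.0 and 86.4 CPM in MG1 and 93.6 and 86.5 CPM in MG2, against 11.2 to 18.3 CPM with a median of 13.1 in MT1 and 35.3, 31.0 and 32.5 CPM in MT2. No tumor library reached a gland library, and the MT1 libraries lay below all MT2 libraries. On the log2 scale the change was -2.10 ± 0.22 (SE) in mouse 1 (adjusted p = 4.74e-07) and -1.45 ± 0.19 in mouse 2 (adjusted p = 2.14e-06), and MT1 was below MT2 by -1.13 ± 0.17 (adjusted p = 1.04e-05). The interaction of -0.65 ± 0.29 missed the threshold (adjusted p = 0.0839). It passed with DESeq2 (-0.84, adjusted p = 0.0436), with RLE scaling (-0.81, adjusted p = 0.0367), with the stromal cells included (-0.77, adjusted p = 0.0258), with epithelial-like MT1 cells alone (-0.78, adjusted p = 0.0430), without MG1 replicate 1 (-0.99, adjusted p = 0.0173) and without MT1 replicate 5 (-0.88, adjusted p = 0.0320). Over all libraries left out, the interaction ranged from -0.99 to -0.34.

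Gclm, the modifier subunit of the same enzyme, did not follow Gclc. It stood at 124 and 93.3 CPM in MG1, 129 and 116 CPM in MG2, 106 to 154 CPM with a median of 123 in MT1, and 113, 132 and 108 CPM in MT2. All groups overlapped. Tumor differed from gland by a log2 fold change of 0.16 ± 0.17 in mouse 1 and -0.05 ± 0.17 in mouse 2 (adjusted p = 0.454 and 0.794).

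Gsta4, a glutathione transferase that acts on 4-hydroxynonenal and other products of lipid peroxidation, was higher in both tumors. Its levels were 26.6 and 32.8 CPM in MG1 and 33.5 and 35.0 CPM in MG2, against 74.2 to 91.7 CPM with a median of 83.0 in MT1 and 99.1, 125 and 107 CPM in MT2. Every tumor library was above every gland library. In the test the log2 fold change was 1.56 ± 0.19 in mouse 1 (adjusted p = 2.63e-06) and 1.69 ± 0.17 in mouse 2 (adjusted p = 6.18e-08), with an interaction of -0.12 ± 0.25 (adjusted p = 0.742). MT1 was below MT2 by -0.39 ± 0.12 (adjusted p = 0.00804), but with MT1 restricted to its epithelial-like cells this difference was -0.13 (adjusted p = 0.341), and without MT2 replicate 2 it was -0.27 (adjusted p = 0.0749).

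Txnrd1, the cytosolic thioredoxin reductase, was lower in both tumors. Its levels were 499 and 373 CPM in MG1 and 548 and 476 CPM in MG2, against 203 to 253 CPM with a median of 230.0 in MT1 and 201, 211 and 183 CPM in MT2. The tumor libraries did not reach the gland libraries, and those of the 2 tumors overlapped. The log2 fold change was -0.95 ± 0.14 in mouse 1 (adjusted p = 2.64e-05) and -1.37 ± 0.16 in mouse 2 (adjusted p = 4.19e-07), with an interaction of 0.42 ± 0.22 (adjusted p = 0.131). Without MG1 replicate 1 the mouse 1 change was -0.60 and the interaction passed the test (0.74, adjusted p = 0.0148). Over all libraries left out, the interaction ranged from 0.15 to 0.74.

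Gpx2 encodes a glutathione peroxidase that is known from gut epithelium. It had 2098 UMIs in MT1 outside the stroma, against 16 in MG1, 10 in MG2 and 8 in MT2. Its levels were 94.1 to 117 CPM with a median of 109 in the 5 MT1 libraries, 6.66 and 0 CPM in MG1, 1.20 and 1.18 CPM in MG2, and 0.0737, 0.536 and 0 CPM in MT2. The MT1 libraries were far above all others and varied little among themselves (107 ± 8.85 CPM, SD, n = 5). On the log2 scale the change was 4.36 ± 0.41 against MG1 (adjusted p = 1.12e-07) and 8.90 ± 0.37 against MT2 (adjusted p = 3.03e-13), and the latter was 10.77 without MT2 replicate 2, which held 7 of the 8 MT2 UMIs. A count of 0 allowed up to 5.18 CPM in MG1 replicate 2, and without MG1 replicate 1 the group is at 0 and its fitted change (12.36) is no bound. Of the 16 MG1 UMIs, 12 (75%) came from MG1 cells of MT1 clusters 2 and 3, and leaving out all cells in clusters of the other tissue gave a log2 fold change of 6.26.

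In mouse 2, Gpx2 was called lower in MT2 (log2 fold change -2.43 ± 0.85, adjusted p = 0.0174). The gene passed the filter of the fit of all 12 libraries through its high MT1 level and lay near 0 in both groups compared here. The call is therefore not read as a fall. This call rests on 10 UMIs against 8, and it was lost without MG2 replicate 1 (-2.22, adjusted p = 0.104) and without MG2 replicate 2 (-2.24, adjusted p = 0.102), while without MT2 replicate 2, which held 7 of the 8, it was -4.30. Of these UMIs, 5 lay in 13 MT2 cells of MT1 cluster 3 and 1 in 13 MT2 cells of MT1 cluster 4, and the 3754 cells of MT2 cluster 1 held 2. The 6013 cells of MT2 cluster 0 held 0. The interaction was 6.79 ± 1.09 (adjusted p = 6.77e-05). It was 8.65 without MT2 replicate 2, 6.17 without MT2 replicate 3 and 8.73 without the cells in clusters of the other tissue, and without MG1 replicate 1 the fitted 14.76 is no bound. All of these passed the test.

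Nqo1, which reduces quinones to hydroquinones and is a common read-out of NRF2, was also high in MT1. Its levels were 42.5 to 62.7 CPM with a median of 54.6 in MT1, 12.9 and 0 CPM in MG1, 6.94 and 10.6 CPM in MG2, and 7.0, 8.19 and 7.15 CPM in MT2. The MT1 libraries were above all others, and those of MG2 and MT2 overlapped. Tumor differed from gland by a log2 fold change of 2.41 ± 0.37 in mouse 1 (adjusted p = 3.08e-05) and -0.24 ± 0.33 in mouse 2 (adjusted p = 0.544), and the interaction was 2.65 ± 0.51 (adjusted p = 0.000411). MT1 exceeded MT2 by 2.81 ± 0.23 (adjusted p = 4.53e-09). MG1 replicate 2 had 0 UMIs, which allows up to 5.18 CPM, and without MG1 replicate 1 the fitted Nqo1 change (11.33) and interaction (11.53) are therefore no bounds.

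Slc7a11, the cystine-glutamate antiporter that brings in cystine for glutathione, was set apart by the gland of mouse 2. Its levels were 39.3 and 35.5 CPM in MG2 and 0.442, 0.459 and 0.550 CPM in MT2, against 3.75 and 3.46 CPM in MG1 and 1.96 to 3.49 CPM with a median of 2.35 in MT1. The MG2 libraries lay far above all others, the MT2 libraries lay below all others, and MG1 and MT1 overlapped. In the test the log2 fold change was -6.21 ± 0.27 in mouse 2 (adjusted p = 1.07e-12) and -0.43 ± 0.44 in mouse 1 (adjusted p = 0.470), with an interaction of 5.79 ± 0.49 (adjusted p = 2.8e-08). MT1 exceeded MT2 by 2.45 ± 0.33 (adjusted p = 2.53e-06). Outside the stroma the gene had 11 UMIs in MG1, 53 in MT1 and 19 in MT2, and in MT2 a further 50 UMIs lay in stromal cells. With the stromal cells included, MT1 against MT2 was 0.65 (adjusted p = 0.0763), the mouse 2 change -4.50 and the interaction 3.86, and the latter 2 still passed.

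Srxn1, sulfiredoxin, which repairs over-oxidized peroxiredoxins, moved in opposite directions in the 2 mice. Its levels were 37.8 to 48.2 CPM with a median of 42.6 in MT1 against 67.8 and 133 CPM in MG1, and 151, 147 and 160 CPM in MT2 against 61.3 and 83.4 CPM in MG2. Neither tumor overlapped its gland, and the MG1 libraries differed widely from each other. The log2 fold change was -1.13 ± 0.21 in mouse 1 (adjusted p = 0.000218) and 1.08 ± 0.21 in mouse 2 (adjusted p = 0.000173), with an interaction of -2.21 ± 0.30 (adjusted p = 1.04e-05). Without MG1 replicate 2 the mouse 1 change of Srxn1 was -0.66 and still passed. With MT1 restricted to its epithelial-like cells it was -1.78, the interaction was -2.87 and MT1 against MT2, -1.85 in the fit of all non-stromal cells, was -2.49.

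Hmox1, the inducible haem oxygenase that breaks haem down to biliverdin, iron and carbon monoxide, was low in MT1. Its levels were 7.64 to 23.5 CPM with a median of 10.9 in MT1, against 96.5 and 76.0 CPM in MG1, 39.0 and 54.3 CPM in MG2, and 60.6, 45.1 and 73.6 CPM in MT2. The MT1 libraries were below all others, with replicate 2 the highest of the 5, and MG2 and MT2 overlapped. On the log2 scale the change was -2.87 ± 0.29 in mouse 1 (adjusted p = 3.52e-07) and 0.36 ± 0.28 in mouse 2 (adjusted p = 0.268; 0.50 and adjusted p = 0.0390 without MT1 replicate 2), and the interaction was -3.23 ± 0.41 (adjusted p = 5.64e-06). Over all libraries left out, the mouse 2 change ranged from 0.21 to 0.83. With the stromal cells included the mouse 1 change was -3.72.

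Gstm1, a mu-class glutathione transferase, changed least among the genes called in tumor against gland. Its levels were 79.1 and 81.2 CPM in MG1 against 44.7 to 67.4 CPM with a median of 56.7 in MT1, and 46.0 and 44.0 CPM in MG2 against 35.9, 44.7 and 49.1 CPM in MT2. Tumor differed from gland by a log2 fold change of -0.46 ± 0.19 in mouse 1 (adjusted p = 0.0419) and -0.06 ± 0.18 in mouse 2 (adjusted p = 0.799). MT1 exceeded MT2 by 0.43 ± 0.14 (adjusted p = 0.0140), which fell to 0.19 with epithelial-like MT1 cells alone (adjusted p = 0.253) and missed the threshold without MG2 replicate 1 or 2, MT1 replicate 2 or MT2 replicate 1 (0.29 to 0.32). The mouse 1 call was lost without the filter on low counts (-0.38, adjusted p = 0.122) and without either MG1 library, either MG2 library, or MT1 replicate 1, 4 or 5 (-0.55 to -0.36 over all libraries left out), and with the stromal cells included it was -1.52 (adjusted p = 1.02e-05). In the last 500 bases of its transcripts, 23% of 50-base windows were shared with other genes (Gstm2-ps1, Gstm3 and Gm8834), and in those of Gpx2 20.2% were shared with the pseudogene Gpx2-ps1, so counts of these genes are uncertain where reads match both. The other 8 genes shared 0 such windows.

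The gene positions are from GENCODE on GRCm38, and all 10 genes are protein-coding. Gpx2 lies on chromosome 12 from 76792333 to 76795554 (minus strand) and overlaps Fntb on the plus strand. Nqo1 lies on chromosome 8 from 107388225 to 107403206, Hmox1 on chromosome 8 from 75093621 to 75100589, Slc7a11 on chromosome 3 from 49892526 to 50443614, Gclm on chromosome 3 from 122245557 to 122270732 and Gstm1 on chromosome 3 from 108012255 to 108017973. Gclc and Gsta4 both lie on chromosome 9 (77754535 to 77794485 and 78182774 to 78209349), Txnrd1 lies on chromosome 10 from 82833951 to 82897712 and Srxn1 on chromosome 2 from 152105516 to 152111376. Whether the counting used strand is not given in the sources used here. Reads of Gpx2 and Fntb, of Gclm with Gm17494 and Gm6061, of Txnrd1 with Eid3 and Gm38560, and of Slc7a11 with Gm37498 may therefore not be told apart where they overlap.

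With the animal as the replicate, gland and tumor sums of the 2 mice were compared with the mouse as block, which leaves 1 residual degree of freedom. Here 0 of 14947 genes (0%) had an adjusted p under 0.05 with edgeR, beside 2217 at an unadjusted p under 0.05 and 1315 adjusted calls with DESeq2. None of the 10 genes was called. Gsta4 (log2 fold change 1.71 ± 0.39, adjusted p = 0.310), Gclc (-1.62 ± 0.43, adjusted p = 0.310) and Txnrd1 (-1.12 ± 0.37, adjusted p = 0.330) had unadjusted p-values of 0.0134, 0.0216 and 0.0399.

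The levels by cell type show where within each tissue the genes were counted. They are means over libraries of sums of at least 20 cells and are given as a description with no test, because the clusters come from the same cells. In the library sums of the tests, fewer cells of a type and less RNA per cell cannot be told apart.

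**Figure D3:**
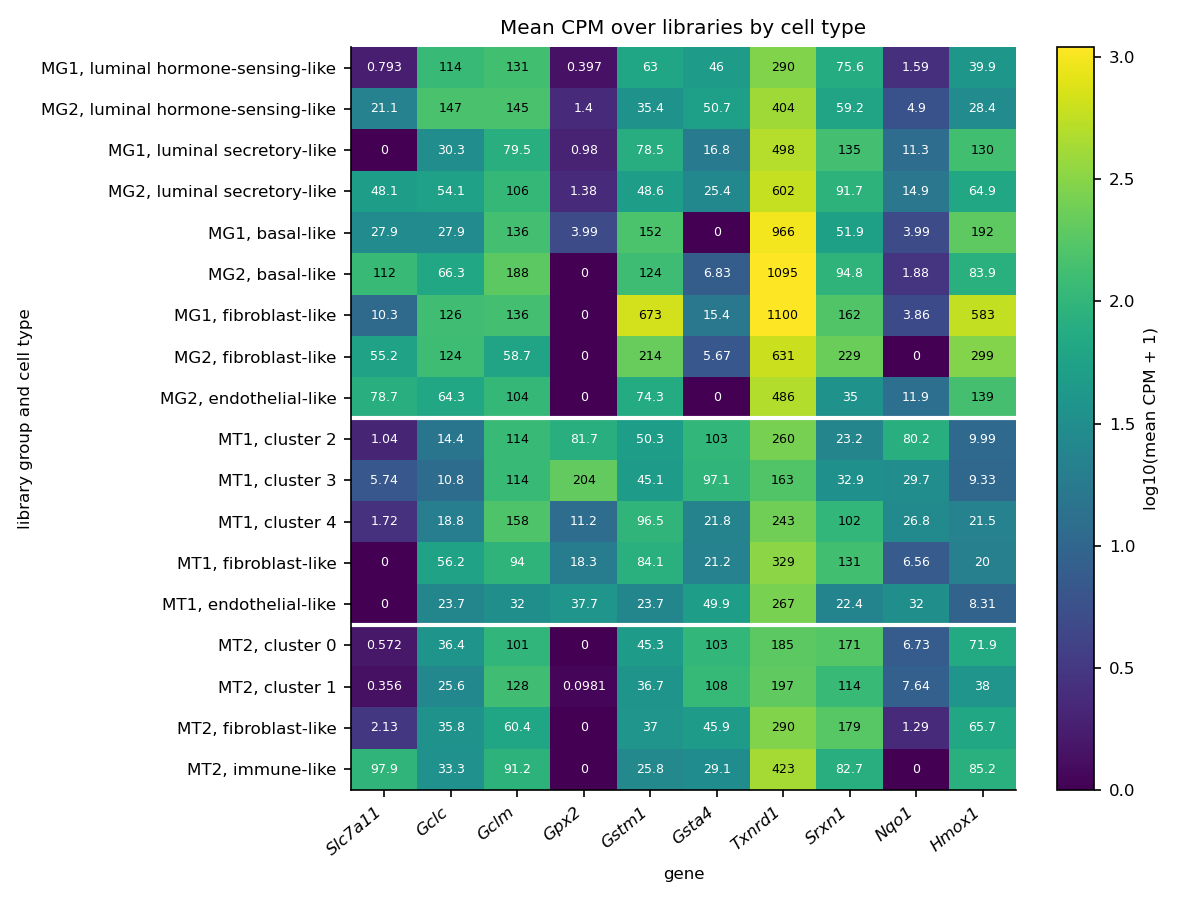
Mean CPM over libraries (numbers, with colour on a log10 scale) of each gene (x axis) in each cell type of each group (y axis); white lines separate glands, MT1 and MT2. Gpx2 is highest in MT1 cluster 3, Nqo1 in MT1 cluster 2, Slc7a11 in MG2 basal-like cells and MT2 immune-like cells, and Txnrd1 in gland basal-like and fibroblast-like cells.

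Gpx2 reached 204 ± 22.9 CPM (SD, n = 5) in MT1 cluster 3 and 81.7 ± 10.5 CPM in cluster 2, and the range over libraries was 171 to 233 CPM against 66.4 to 95.7 CPM, apart in all 5 libraries. In cluster 4 of the same tumor it was 11.2 ± 3.44 CPM. The MT1 fibroblast-like and endothelial-like cells, taken here as a guide to background, gave 18.3 ± 14.9 CPM (n = 4) and 37.7 ± 6.36 CPM (n = 2), on 5 UMIs each, and without the top doublet scores the latter was 21.1 ± 29.9 CPM with 1 library at 0. The mean in cluster 4 was below both, which rest on few UMIs, so it is not read as expression. Whether cluster 4 cells lack Gpx2 was not tested. In the glands no epithelial type exceeded 3.99 CPM, which in MG1 basal-like cells is 1 UMI. Nqo1 in MT1 was higher in cluster 2 than in cluster 3, at 80.2 ± 18.1 against 29.7 ± 8.37 CPM, and stood at 26.8 ± 8.27 CPM in cluster 4. The MT1 endothelial-like cells gave 32 ± 25.3 CPM (n = 2, 4 UMIs) and the fibroblast-like cells 6.56 ± 7.58 CPM (n = 4) on 2 UMIs, under the 3-count limit. The Nqo1 means in clusters 3 and 4 lay between these, and whether they exceed background was not tested. In the glands Nqo1 was higher in secretory-like cells (11.3 CPM in MG1 and 14.9 ± 2.3 CPM in MG2) than in hormone-sensing-like cells (1.59 and 4.90 CPM), and in MG1 both values have 0 UMIs in 1 of the 2 libraries, with 4 UMIs in all in hormone-sensing-like cells.

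Txnrd1 also was lower in cluster 3 (163 ± 20.5 CPM, 143 to 193 CPM) than in cluster 2 (260 ± 17.3 CPM, 246 to 281 CPM) in all 5 MT1 libraries. Both means lay below those of every gland epithelial type, of which the lowest was 290 CPM in MG1 hormone-sensing-like cells (239 and 341 CPM in its libraries, which overlap cluster 2). The highest gland values were in basal-like cells, at 966 CPM in the 1 MG1 sum and 1095 ± 38.3 CPM in MG2, and in fibroblast-like cells of MG1 at 1100 ± 366 CPM (n = 2). Srxn1 was 102 ± 14.9 CPM in cluster 4 of MT1, against 23.2 ± 5.35 CPM in cluster 2 and 32.9 ± 2.88 CPM in cluster 3. In the MT2 clusters it was 171 ± 7.74 and 114 ± 5.67 CPM, and the gland epithelial types ranged from 51.9 CPM (MG1 basal-like, 1 sum) to 135 CPM (MG1 secretory-like). Gsta4 showed the opposite split in MT1, with 103 ± 7.28 and 97.1 ± 20.1 CPM in clusters 2 and 3 and 21.8 ± 7.79 CPM in cluster 4, while MT2 clusters 0 and 1 stood at 103 ± 8.01 and 108 ± 19.9 CPM. In MT1 fibroblast-like cells it was 21.2 ± 14.8 CPM (n = 4) and in endothelial-like cells 49.9 ± 70.5 CPM (n = 2), on 6 UMIs each. The cluster 4 mean of Gsta4 lay between these, so it is not read as expression.

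Gclc was highest among gland epithelial cells in hormone-sensing-like cells (114.5 ± 48.7 CPM in MG1 and 147 ± 19.4 CPM in MG2, n = 2 each) and lower in secretory-like cells (30.3 and 54.1 CPM) and in basal-like cells (27.9 CPM in the 1 MG1 sum and 66.3 CPM in MG2). No MT1 tumor cluster exceeded 18.8 CPM. Gsta4 in the glands was 46.0 and 50.7 CPM in hormone-sensing-like cells, 16.8 and 25.4 CPM in secretory-like cells, and 0 and 6.83 CPM in basal-like cells. Hmox1 and Gstm1 were highest in gland fibroblast-like cells, which the tests leave out: Hmox1 reached 583 ± 169 CPM in MG1 and 299 ± 5.02 CPM in MG2, and Gstm1 673 ± 348 and 214 ± 72.6 CPM. In MT1 fibroblast-like cells Hmox1 was 20.0 ± 21.3 CPM (n = 4) on 6 UMIs, beside 9.33 to 21.5 CPM in the tumor clusters. Among epithelial cells Hmox1 was higher in secretory-like (130 and 64.9 CPM) and basal-like cells (192 and 83.9 CPM) than in hormone-sensing-like cells (39.9 and 28.4 CPM). The gland sums mix these types, and the part of their shares in the tumor against gland differences was not tested.

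Slc7a11 had the higher level in MG2 in each cell type described here. It was 112 ± 15.2 CPM in MG2 basal-like cells against 27.9 CPM in the 1 MG1 sum (7 UMIs), and 48.1 ± 0.65 CPM in MG2 secretory-like cells against 0 UMIs of Slc7a11 among 1220651 in MG1, which allows up to 2.46 CPM. In hormone-sensing-like cells it was 21.1 ± 0.05 CPM in MG2, while MG1 had 2 UMIs, under the 3-count limit of 1.98 CPM over the group. In fibroblast-like cells it was 55.2 ± 32.9 CPM in MG2 and 10.3 ± 7.28 CPM in MG1, the latter on 4 UMIs. In MT2 the immune-like cells held it at 156, 34.1 and 104 CPM in the 3 libraries, against 0.57 ± 0.14 and 0.36 ± 0.22 CPM in clusters 0 and 1. Within MT1 it was 2.26 to 8.4 CPM in cluster 3 and 0.42 to 1.54 CPM in cluster 2, on 2 to 17 UMIs per library in cluster 3 and 1 or 2 in cluster 2. Every cluster 2 value is under the 3-count limit, so no order is read from these values.

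To relate the genes to the inflammatory state of MT1, epithelial-like MT1 cells with at least 1 UMI of Ccl20, a chemokine, or Ubd, a ubiquitin-like protein induced by cytokines, were compared with the other epithelial-like MT1 cells of the same library. There were 1698 positive cells (532 with Ccl20, 1398 with Ubd, 232 with both) and 4318 others. The positive cells had a median of 2324 UMIs and the others 2004, and 76.6% of the positive cells lay in cluster 3, against 28.7% of the others. Of the 9 genes that passed the filter, Gpx2 was higher in positive cells and Nqo1 and Txnrd1 were lower, beside 12% of 9430 genes higher and 10.6% lower. Slc7a11 did not pass the filter (18 and 28 UMIs).

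**Figure D4:**
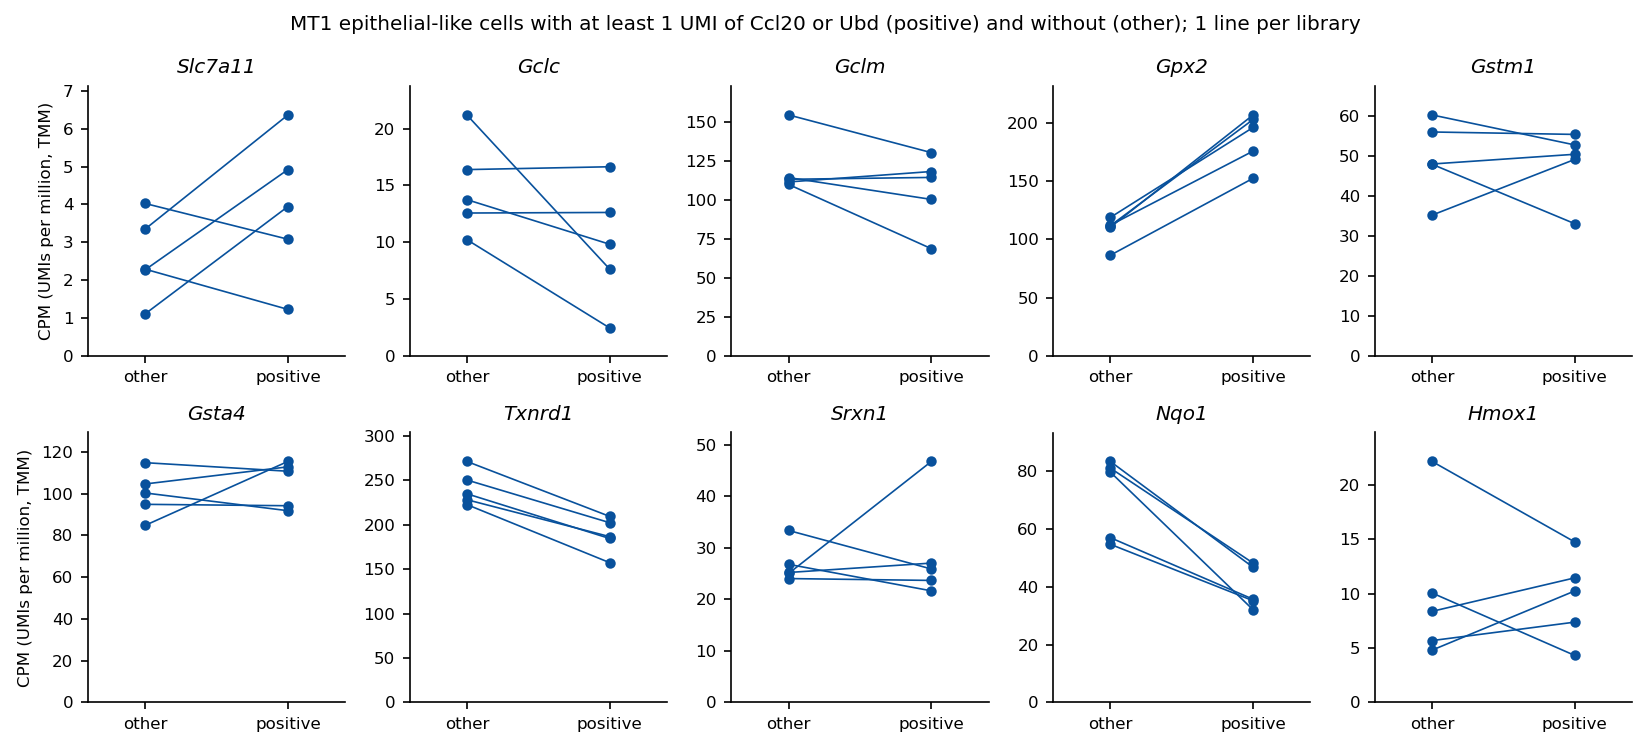
Level of each gene in CPM (y axis) in the other and the Ccl20- or Ubd-positive epithelial-like cells of MT1 (x axis); each line joins the values of 1 library. Gpx2 rises and Nqo1 and Txnrd1 fall in all 5 libraries, and the lines of the other genes cross.

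Gpx2 was 207, 152, 196, 203 and 176 CPM in the positive cells of MT1 replicates 1 to 5 and 110, 86.3, 119, 112 and 112 CPM in the others. The classes did not overlap, and the log2 difference was 0.78 ± 0.07 (adjusted p = 3.15e-11). Nqo1 was 32, 46.7, 35.1, 48.1 and 35.6 CPM in the positive cells and 79.6, 83.2, 54.6, 80.9 and 56.9 CPM in the others, again without overlap, with a log2 difference of -0.77 ± 0.11 (adjusted p = 1.21e-06). Txnrd1 was 157 to 209.5 CPM in the positive cells and 223 to 271 CPM in the others (log2 difference -0.35 ± 0.06, adjusted p = 2.6e-05). The remaining 6 genes had log2 differences of -0.38 (Gclc) to 0.06 (Gsta4), with adjusted p from 0.239 to 0.859. The Txnrd1 call was lost with cells thinned to 1000 UMIs (-0.17, adjusted p = 0.424) and with Ccl20 alone (-0.05, adjusted p = 0.835), whereas Gpx2 and Nqo1 passed in both.

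In an alternative added after the data were seen, the classes were compared within a cluster. Ccl20 and Ubd were not left out of the clustering and are among the 10 leading genes of cluster 3, so class and cluster are not independent, and holding the cluster fixed also removes part of the contrast. Within cluster 3 the log2 difference was 0.24 for Gpx2 (adjusted p = 0.313), 0.07 for Nqo1 (adjusted p = 0.950) and -0.05 for Txnrd1 (adjusted p = 0.907), and within cluster 2 it was 0.34, -0.20 and 0.000355 (adjusted p = 0.648, 0.885 and 1.00). None of the genes tested was called within either cluster (Slc7a11 and Hmox1 did not pass the filter in either, nor Gclc in cluster 3). Of all genes, 60 of 7284 were called within cluster 3 and 52 of 7230 within cluster 2, against 2131 of 9430 over both clusters.

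The rest of the pathway was read from 9 lists of 97 genes, of which 95 were in the table, chosen with earlier results of these data known. The lists were counted, not tested. The members of each list that passed the test are counted in the plot of the lists, and the background shares of each contrast are those given above.

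**Figure D5:**
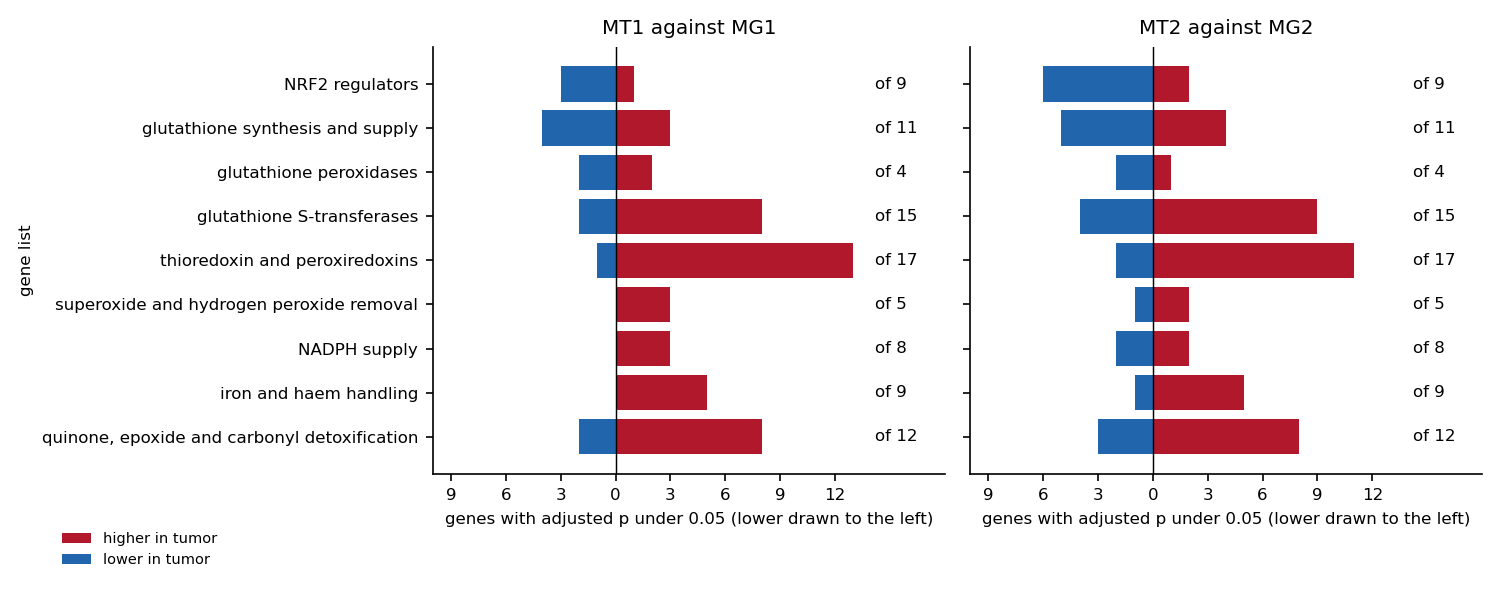
Number of genes of each list (y axis) with an adjusted p under 0.05 (x axis, higher in tumor to the right in red, lower to the left in blue) in each mouse; the number tested stands at the right. The thioredoxin and peroxiredoxin list had 13 and 11 of 17 higher in mouse 1 and 2, beside 32.2% and 32.7% of all genes, and the NRF2 regulators 3 and 6 of 9 lower, beside 27.1% and 34.3%.

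Among the 9 NRF2 regulators, 1 was higher and 3 lower in MT1, with a median log2 fold change of -0.04 against 0.11 over all genes, and 2 were higher and 6 lower in MT2, with -0.66 against -0.05. Nfe2l2, which encodes NRF2 itself, had mean levels of 116.5 CPM in MG1 and 122 CPM in MT1 (log2 fold change -0.01 ± 0.18, adjusted p = 0.990; the MG1 libraries were 81.2 and 152 CPM, and the mean weights them equally while the fit gives the deeper one more weight), and rose in MT2, at 194 CPM against 132 CPM in MG2 (0.56 ± 0.18, adjusted p = 0.00991), with an interaction of -0.57 ± 0.25 (adjusted p = 0.0743). That interaction passed with DESeq2 (-0.73, adjusted p = 0.00427), with RLE scaling (-0.72, adjusted p = 0.0183) and with the stromal cells included (-0.79, adjusted p = 0.00763). Keap1, its inhibitor, was 40.9 and 52.9 CPM in MG1 and MT1 (0.26 ± 0.22, adjusted p = 0.324) and fell in mouse 2, to 28.7 CPM from 52.9 CPM (-0.88 ± 0.20, adjusted p = 0.000656). Bach1, the repressor, rose in mouse 1, to 203 CPM from 114 CPM (0.80 ± 0.16, adjusted p = 0.000431), and fell in mouse 2, to 73.5 CPM from 136 CPM (-0.88 ± 0.16, adjusted p = 6.7e-05), with an interaction of 1.68 ± 0.23 (adjusted p = 9.51e-06). Sqstm1, an autophagy receptor that binds KEAP1, fell in both mice (-1.40 ± 0.17 and -1.40 ± 0.19). The small MAF gene Mafk fell in both (-1.36 ± 0.17 and -0.61 ± 0.17), and Maff fell in mouse 2 (-1.50 ± 0.26, adjusted p = 5.68e-05).

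Of the 11 genes of glutathione synthesis and supply that were tested, 3 were higher and 4 lower in MT1 and 4 higher and 5 lower in MT2 (medians -0.43 and -0.19). With DESeq2, over 12 genes, the medians were -0.70 and -0.55, and with the stromal cells included 6 genes were lower in MT1. Ggct, which cleaves gamma-glutamyl peptides, fell in mouse 1 (-2.01 ± 0.30, adjusted p = 2.19e-05) and rose in mouse 2 (2.58 ± 0.30, adjusted p = 4.53e-07), with an interaction of -4.59 ± 0.42 (adjusted p = 7.89e-08). Its MG1 libraries were at 17.3 and 76.6 CPM, and the lower lay within the MT1 range of 9.99 to 18.4 CPM. Chac1, which degrades glutathione, fell in mouse 1 (-2.60 ± 0.70, adjusted p = 0.00382), and in mouse 2 (-0.98 ± 0.35, adjusted p = 0.0184), where DESeq2 did not call it (-0.95, adjusted p = 0.204). In MG1 Chac1 had 24 UMIs, at 2.50 and 31.1 CPM in the 2 libraries, against 0.588 to 1.96 CPM in MT1. The size of its mouse 1 fall is therefore uncertain. Cth, the last enzyme of cysteine synthesis from methionine, was called higher in MT1 on 103 UMIs against 3 in MG1, and Ggt5 lower in MT2 on 3 UMIs against 18 in MG2, too few to give a fold. Of 4 glutathione peroxidases tested besides Gpx2, Gpx8 was higher and Gpx3 and Gpx4 lower in both mice, and Gpx1 was higher in MT1 alone, where Gpx1 and Gpx4 were named after their values were seen. Gpx3, the secreted enzyme, fell in mouse 1, to 5.36 CPM from 376 CPM (-6.08 ± 0.28), and in mouse 2, to 20.4 CPM from 104.5 CPM (-2.35 ± 0.26), and Gpx8, an enzyme of the endoplasmic reticulum, rose by 4.55 ± 0.43 and 3.68 ± 0.29. In MG1 Gpx8 had 8 UMIs, with 1 of the 2 libraries at 0, so the size of its mouse 1 rise is uncertain.

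Of 15 glutathione S-transferases, 8 were higher and 2 lower in MT1 and 9 higher and 4 lower in MT2 (medians 0.79 and 1.17). Mgst2, a microsomal enzyme, rose in both (3.05 ± 0.28 and 6.5 ± 0.30), with an interaction of -3.45 ± 0.52 (adjusted p = 3.64e-05). It had 21 UMIs in MG1 and 10 in MG2, so the sizes of these changes are uncertain. Gstp2 had 0 UMIs in both glands, 36 in MT1 and 137 in MT2, which is at least 1.63-fold and at least 9.79-fold higher against 3 UMIs over the gland group. DESeq2 did not call it in mouse 1 (adjusted p = 0.0596). Of 17 thioredoxin and peroxiredoxin genes, 13 were higher and 1 lower in MT1 and 11 higher and 2 lower in MT2 (medians 1.28 and 0.77). Prdx4 rose in both mice (2.44 ± 0.26 and 2.27 ± 0.23), as did Prdx3 (2.17 ± 0.25 and 1.19 ± 0.19), and Prdx5 rose in mouse 2 (1.77 ± 0.19, against -0.20 ± 0.18 in mouse 1, adjusted p = 0.357). Named after their values were seen, Txnrd3 was lower in both tumors (-0.78 ± 0.27 and -0.74 ± 0.19), as Txnrd1 was, and Txnrd2 was higher in MT1 (1.37 ± 0.42).

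Of 5 genes for superoxide and hydrogen peroxide removal, 3 were higher and 0 lower in MT1 and 2 higher and 1 lower in MT2 (medians 1.31 and 0.36). Sod3, the extracellular superoxide dismutase, rose in both (3.53 ± 0.54 from 5 UMIs in MG1, and 5.77 ± 0.33), as did the copper chaperone Ccs (1.55 ± 0.30 and 1.27 ± 0.22). With the stromal cells included, the Sod3 difference in mouse 1 had the opposite sign (-0.61, adjusted p = 0.138), and the median of the list was 0.64. With RLE scaling and with DESeq2, 1 gene of this list was also lower in MT1. Of 8 genes of NADPH supply, 3 were higher and 0 lower in MT1 and 2 higher and 2 lower in MT2 (medians 0.04, which is -0.09 with RLE scaling, and 0.00056). Idh1 rose in both (2.19-fold, adjusted p = 0.000368, and 7.47-fold, adjusted p = 6.69e-11), Pgd of the pentose phosphate pathway rose in mouse 1 (1.31 ± 0.18, adjusted p = 1.09e-05), and Taldo1 fell in mouse 2 (-1.14 ± 0.15, adjusted p = 2.21e-06).

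Of 9 genes of iron and haem handling, 5 were higher in each tumor, and 0 lower in MT1 and 1 lower in MT2 (medians 0.94 and 0.70). The ferritin heavy chain Fth1 was 2096 and 2374 CPM in MG1 and at least 9856 CPM in each MT1 library, a rise of 2.32 ± 0.21, and it rose in mouse 2 by 2.97 ± 0.22. The haem transporter Slc48a1 rose in both (2.77 ± 0.34 and 1.36 ± 0.23), and the iron exporter Slc40a1 fell in mouse 2 (-3.70 ± 0.57). Of 12 genes of quinone, epoxide and carbonyl detoxification besides Nqo1, 8 were higher in each tumor and 2 and 3 lower (medians 0.80 and 1.25). Osgin1 fell in both (-1.49 ± 0.20 and -4.61 ± 0.24), with an interaction of 3.12 ± 0.32 (adjusted p = 3.33e-07). Aldh3a1 had 0 UMIs in MG1 and 42 in MT1, at least 2.12-fold higher against 3 UMIs over the group, and rose in mouse 2 (3.19 ± 0.51). Aldh1a1, called higher in MT1 and lower in MT2, had 1 UMI in MG1 against 61 in MT1 and 3 in MG2 against 0 in MT2, too few to give a fold. The MT1 call was lost with DESeq2 (adjusted p = 0.0574) and, with the stromal cells included, had the opposite sign (-0.71, adjusted p = 0.173).

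Between the Ccl20- or Ubd-positive and the other MT1 cells, 11 of the 79 list genes tested were higher and 7 lower, beside 12% and 10.6% of all genes. DESeq2 called 4 of 82 higher and 3 lower, and 990 genes in all against 2131. Within cluster 3 alone, 0 of 68 were called, beside 60 of all 7284 genes. The thioredoxin and peroxiredoxin list had 3 of 17 higher, among them Prdx4 (0.41 ± 0.08, adjusted p = 7.61e-05, and 0.05, adjusted p = 0.907, within cluster 3), and 1 lower. The NADPH list had 3 of 8 higher and the NRF2 regulators 2 of 9 higher (Sqstm1, 0.21 ± 0.06, and Maff, 0.23 ± 0.06), and in both lists DESeq2 called 0. Within cluster 3 Sqstm1 and Maff had the opposite sign (-0.10 and -0.06, adjusted p = 0.690 and 0.837). The glutathione S-transferases had 1 of 12 higher and 3 lower. The other 5 lists had at most 1 gene called in either direction.

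The genes most like each member over the 12 libraries were found by Pearson's r of log2 CPM among 13651 other genes. This r is a description, since the libraries of a group share an animal and a tissue, and it says nothing of shared function. Gpx2 was most like Pla2g7 (0.995), Scube3 (0.995) and Scrg1 (0.991), and Nqo1 like Clec2f (0.988), Xpa (0.987) and Vps11 (0.983). Gclc was most like Sema6d (0.981), Zfp777 (0.980) and Pfkfb3 (0.980), and Txnrd1 like Mpp7 (0.986), Nf1 (0.985) and Asrgl1 (0.983). Slc7a11 was most like Dab2ip (0.977), Bicd1 (0.973) and Gk (0.973), Srxn1 like Nipal1 (0.988), Eid2 (0.986) and Tns1 (0.983), and Hmox1 like Ksr1 (0.983), Ube2o (0.975) and Decr2 (0.972). Among the genes most like Gsta4 were Polr2j (0.990) and Msn (0.988). The closest genes of Gclm (Rbm43, 0.909, Ldah, 0.844, and Zfp277, 0.844) and Gstm1 (the mitochondrial tRNA genes mt-Tc, 0.938, mt-Tp, 0.902, and mt-Tv, 0.892) were less alike.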

How the data were processed

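Drop-seq UMI counts of 21743 genes in 21157 cells were used as deposited. The authors aligned reads with STAR to GRCm38.p6 (also in the submitters' processing notes), made whole-number UMI counts per gene and cell with Drop-seq tools, filtered cells with Seurat and deposited the counts without normalization. Strand and the handling of paralogs are not given in the sources used here. Cells were assigned to libraries by the title in each cell name, and 21 barcodes occurred in more than 1 library. The members and gene lists were chosen with earlier results of these data known.

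Cells were clustered with scanpy 1.11.5 (3000 variable genes, 30 components, 20 neighbours, resolution 0.6, members and pathway genes left out) and named from fixed markers. Doublet calling found 45 cells (0.2127%), which cannot be taken as a working call; doublets were kept, and an alternative removed the 5% of cells with the highest scores. UMIs were summed per library over cells outside the stromal clusters and tested with edgeR 4.0.16 (TMM, filterByExpr, quasi-likelihood test, Benjamini-Hochberg adjustment, threshold 0.05) in R 4.3.3. SEs derive from the F statistic. The classes of MT1 cells were tested with the library as block. All members were named, of the lists Nfe2l2, Keap1 and Bach1 always and up to 2 called genes per list and mouse with the largest change, and for each member the 3 genes with the highest r (prior count 2), of which 1 is not reported here. The fits were tested on simulated data. Limits for 0 use 3 counts and cover counting error only. Alternatives were DESeq2 1.42.0, RLE scaling, no filter, other cells, other clustering, thinning and each library left out.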

Additional observations from a re-analysis of the deposited data

Results flagged for a closer look

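The change from gland to tumor differed between the mice for 5 of 10 members, by the interaction term of the edgeR fit. Of all genes tested, 26.4% were called higher and 17.1% lower in this term. The log2 difference, mouse 1 minus mouse 2, was 6.79 for Gpx2 (adjusted p = 6.77e-05), 5.79 for Slc7a11 (adjusted p = 2.8e-08), 2.65 for Nqo1 (adjusted p = 0.000411), -2.21 for Srxn1 (adjusted p = 1.04e-05) and -3.23 for Hmox1 (adjusted p = 5.64e-06). With 1 library left out, the difference ranged from 6.17 to 14.76 for Gpx2 and from 2.16 to 11.53 for Nqo1. The highest values are those without MG1 replicate 1, where MG1 is at 0 and the fitted value is no bound. With the stromal cells included it was 3.86 for Slc7a11. Each mouse gave 1 gland and 1 tumor, so mouse and tumor cannot be told apart.

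Single libraries stood apart from the others of their group in 5 of 30 groups tested, where chance gives about 1 in 20. Hmox1 was 23.5 CPM in MT1 replicate 2. Among the other MT1 epithelial-like cells, Gclm was 155 CPM (154.6) in replicate 1 and Gpx2 was 86.3 CPM in replicate 2. Among the Ccl20- or Ubd-positive cells, Gstm1 was 33.1 CPM in replicate 5 and Srxn1 was 46.7 CPM in replicate 1.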

How the results depend on the processing

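Of 1027 recomputed member values, 955 kept their direction and their side of the threshold, 24 lost a call, 10 gained one and 38 changed sign. Of the 38, only 2 had been called: Nqo1 (0.0743) within MT1 cluster 3 and Txnrd1 (0.000355) within cluster 2, both between Ccl20- or Ubd-positive and other cells. In that comparison 3 to 3 members were called with a library left out, beside 1618 to 2069 genes of all. Within clusters 3 and 2, 0 and 0 members were called, beside 60 of 7284 and 52 of 7230 genes of all. The cause was not tested. The other changes of sign there were Gclc within cluster 2 (0.45), Gclm (0.057) and Gstm1 (0.21) within cluster 3, Gsta4 with Ccl20 alone (-0.13), Hmox1 with Ubd alone (0.0397) and with at least 2 UMIs (0.10), and Srxn1 with DESeq2 (0.0122). Between tissues they were Gclm in MT1 against MT2 with epithelial-like MT1 cells alone (-0.0483), the Gsta4 difference between the mice with those cells (0.13), and Gclm (0.036) and Gstm1 (0.0327) in MT2 against MG2 without a filter.

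With 1 library left out, 7 to 8 members were called in MT1 against MG1, 5 to 7 in MT2 against MG2, 5 to 7 in the difference between the mice and 7 to 8 in MT1 against MT2. Over all genes, 6300 to 8458, 7982 to 10049, 5010 to 5944 and 8439 to 10240 were called in these fits, which tested 13559 to 14658 genes. Uncalled values that crossed 0 ranged from -0.0836 to 0.193 (Gclm, MT1 against MT2), -0.16 to 0.23 (Gclm, MT2 against MG2), -0.0313 to 0.549 (Gclm, difference), -0.13 to 0.18 (Gstm1, MT2 against MG2) and -0.33 to 0.31 (Nqo1, MT2 against MG2). Between the MT1 classes they ranged from -0.0182 to 0.133 (Gsta4), -0.103 to 0.0185 (Gstm1), -0.45 to 0.21 (Hmox1) and -0.18 to 0.10 (Srxn1). With all cells or with epithelial-like MT1 cells alone, the Gstm1 difference between the mice passed the test (-1.25 and -0.66). The mouse was the block in 1 fit, which called 0 members. Of 340 cell-type levels, 12 moved by more than 1 SD. Low counts limit Gpx2 in MG1, MG2 and MT2, Nqo1 in MG1 and Slc7a11 in MG1 and MT2, which rest on 8 to 31 UMIs. In MT2 these are low levels in the deepest libraries.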
